A study of Mus musculus with 4 samples.

Results

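Foxo1, Foxo3 and Foxo4, the Foxo transcription factors with reads in these libraries, were read in regulatory T cells (Treg) sorted from mouse spleen. They are the 3 of the 38924 genes of the deposited count table that carry these symbols. All 3 passed the filter on low counts that left 14235 genes for testing. The study compared resting Treg with activated Treg, with 2 libraries per group from independent animals according to the design text. Both groups are CD4+Foxp3+ cells from spleen, and the labels print one surface gate, CD62LhiCD44lo, for resting and activated cells alike. No strain, age, allele or treatment is named in the labels; the title places the work in a study of Foxo1 activity in Treg. The count table does not tell the animals of a group apart, so the libraries of each group are called A and B, letters that pair nothing across groups; values of a group are given in the order A, B. Samples were bulk cells, so fewer cells of a type and less RNA per cell cannot be told apart.

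Foxo proteins are forkhead transcription factors that drive genes of quiescence, survival and lymphoid homing in T cells. Signals from the antigen receptor and from growth factors act through PI3K and the kinases Akt and Sgk, which phosphorylate Foxo proteins. The phosphorylated proteins are bound by 14-3-3 proteins, leave the nucleus and can be degraded, so much of their control does not pass through the mRNA that was measured here. In Treg, Foxo1 and Foxo3 are known to be needed for normal suppressive function, and Foxo1 restrains effector genes such as Ifng.

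Foxo1 was the main Foxo transcript in all 4 libraries, and its level was lower in both activated libraries than in both resting ones. Foxo1 levels, as counts scaled to library size (CPM), were 260 and 227 in the resting libraries against 162 and 127 in the activated libraries. The groups did not overlap, and the gap between the lowest resting and the highest activated library, 64.5 CPM, exceeded the range within resting Treg (32.7 CPM) and within activated Treg (35.5 CPM). The means were 243 ± 23.1 CPM (SD, n = 2) in resting and 145 ± 25.1 CPM in activated Treg. The log2 fold change was -0.75 ± 0.20 (SE by edgeR), or 0.595 of the resting level. By edgeR's quasi-likelihood test over all genes the difference did not pass (Benjamini-Hochberg adjusted p = 0.372). DESeq2 gave an adjusted p of 0.0615, and the 95% interval of the log2 difference from limma-voom, not adjusted for the number of genes, ran from -1.26 to -0.24. When genes with few counts were kept in the edgeR fit, Foxo1 passed with an adjusted p of 0.0396, in a fit that called 0.672% of its genes lower. Of all genes tested, 3.66% had a smaller edgeR p than Foxo1 and 3.76% a lower log2 fold change.

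Foxo3, which shares functions with Foxo1 in T cells, had the same order of libraries at a lower level. Its values were 59.1 and 50.8 CPM in the resting libraries against 41.6 and 38.8 CPM in the activated libraries. Both activated libraries again lay below both resting ones, with a gap of 9.15 CPM against a range of 8.27 CPM in resting and 2.81 CPM in activated Treg. The means were 54.9 ± 5.85 and 40.2 ± 1.99 CPM (SD, n = 2). The log2 fold change was -0.45 ± 0.19 (SE) and did not pass by edgeR (adjusted p = 0.604) or by DESeq2 (adjusted p = 0.608). Its limma-voom interval ran from -0.92 to 0.05 and so included no difference, and its edgeR log2 fold change was -0.33 without resting A.

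Foxo4, an X-linked member with few reads here, did not share that direction. It stood at 6.17 and 3.46 CPM in the resting libraries against 7.39 and 6.32 CPM in the activated libraries, from 127, 106, 226 and 128 counts. Resting B was the low library and the groups did not overlap, but resting A and activated B differed by less than their counting error, with exact 95% Poisson intervals of 5.14 to 7.33 and 5.26 to 7.50 CPM. These intervals cover counting error only, since reads amplified by PCR are not independent molecules. The means were 4.82 ± 1.92 and 6.86 ± 0.762 CPM (SD, n = 2), a log2 fold change of 0.51 ± 0.41 (SE) with adjusted p = 0.904 by edgeR and a limma-voom interval from -0.36 to 1.62. The value rested on single libraries: it was 0.15 without resting B and 0.97 without resting A. Foxo6, the remaining gene of the family, which is known mainly from the nervous system, had 0 counts in every library, which allows a level of up to 0.148 CPM in the library with the fewest counts (a floor of 3 counts, which is not the Poisson interval given for Foxo4 and covers counting error only).

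**Figure D1:**
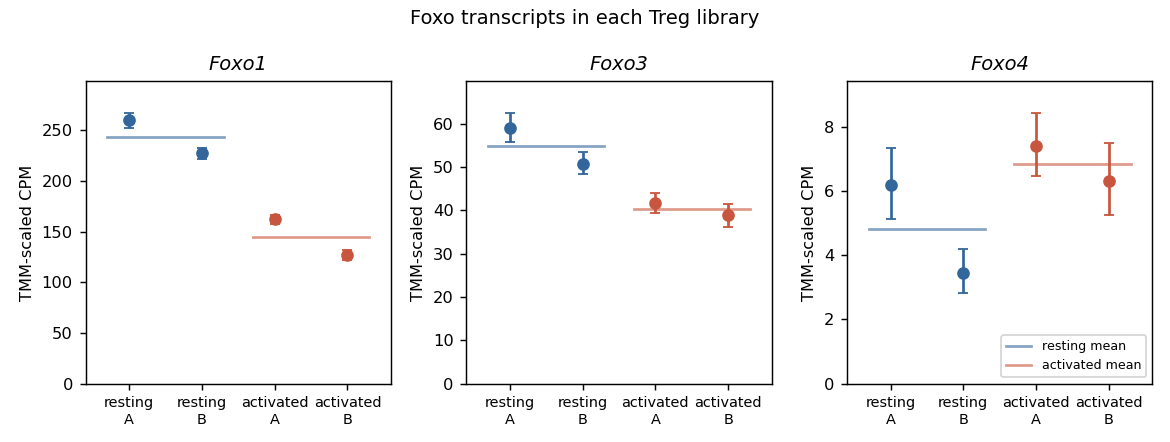
TMM-scaled CPM of Foxo1, Foxo3 and Foxo4 (one panel each, vertical axis from 0) in the 4 libraries; points are libraries, bars exact 95% Poisson intervals of the count and lines the group means. Both activated libraries lie below both resting ones for Foxo1 (162 and 127 against 260 and 227 CPM) and Foxo3, while for Foxo4 resting B, at 3.46 CPM, stands below the other libraries.

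Of the 3 genes, 2 had both activated libraries below both resting ones, where 17.4% of all tested genes did, and 1 had both above, where 19.8% did. edgeR called 0 of the 3 over all genes, as it called 0 of 14235 genes in either direction (0.0% higher and 0.0% lower). Before adjustment, with p under 0.05, it counted Foxo1 lower, among 2.61% of genes that were lower and 6.30% that were higher by that measure. DESeq2 also called 0 of the 3, against 0.829% of genes called lower and 2.28% called higher. Replicate libraries were also compared for each gene. The absolute log2 difference between the resting libraries was 0.19 for Foxo1 and 0.22 for Foxo3, where genes within 0.5 of their mean log2 CPM had medians of 0.21 and 0.23. Between the activated libraries it was 0.36 for Foxo1 and 0.10 for Foxo3, with medians of 0.31 and 0.32. For Foxo4 the resting libraries differed by 0.82, above the median of 0.44 of genes of its level.

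In the regularized log2 values that the authors deposited, which carry replicate numbers, the order was the same. Foxo1 was at 12.62 and 12.45 in resting replicates 1 and 2 and at 11.98 and 11.66 in activated replicates 1 and 2. Foxo3 was at 10.48, 10.29, 10.02 and 9.94 in the same order. Foxo4 was at 7.23, 6.61, 7.42 and 7.25, again with 1 resting library below the others. The differences of group means on this log2 scale were -0.71 for Foxo1, -0.41 for Foxo3 and 0.42 for Foxo4.

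**Figure D2:**
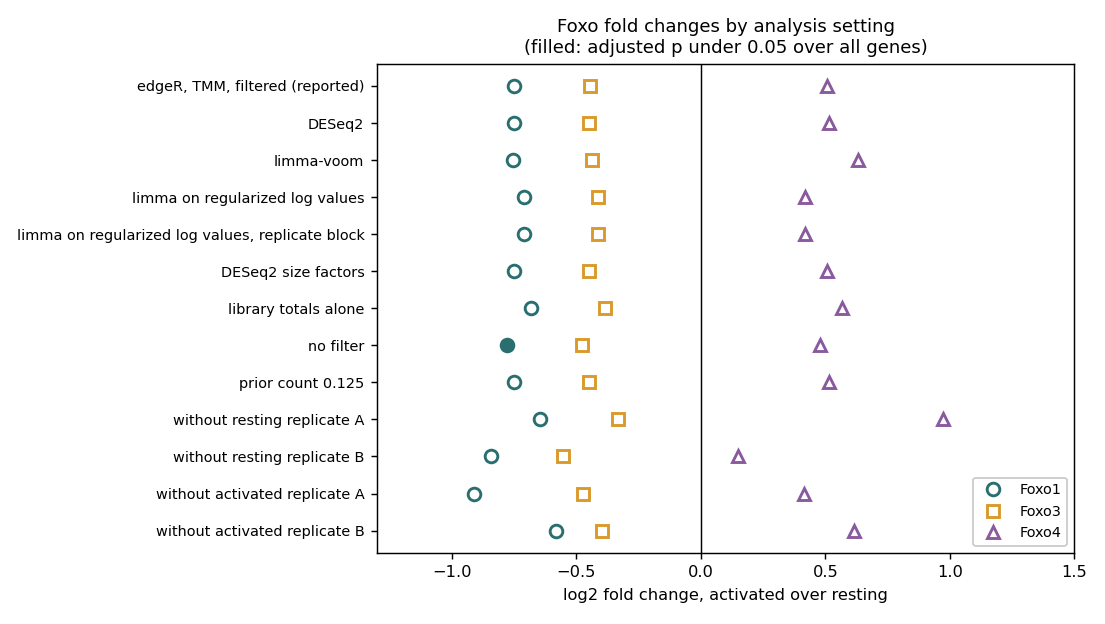
Log2 fold change of each Foxo gene, activated over resting (horizontal axis), under the reported fit and each alternative (rows); filled symbols passed an adjusted p of 0.05 over all genes. Foxo1 lies between -0.91 and -0.58 and Foxo3 between -0.55 and -0.33 in each setting shown, Foxo4 spreads from 0.15 to 0.97, and the only filled symbol is Foxo1 in the fit without a filter.

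The genes differ in structure and place. Foxo1 is a plus-strand gene of chromosome 3, with start 52268336 and end 52353221 (mm10, GENCODE M21), spans 84.9 kb and has 1 annotated transcript of 3 exons and 8665 bases, of which 1956, or 22.6%, are coding. Foxo3 lies on chromosome 10 from 42181841 to 42276755 on the minus strand, spans 94.9 kb and has 5 annotated transcripts with 7571 exon bases in all. Foxo4, also on the plus strand, has its start at 101254528 and its end at 101260873 of chromosome X and spans 6.3 kb with 3485 exon bases. Gm20402, a gene annotated antisense to Foxo1, covers 7.78% of the Foxo1 exon bases and was at 0 counts in all 4 libraries. The strand setting of the counting, and what was done with reads that lie in both genes, was not stated. Apart from Gm20402, stretches of 50 bases from the Foxo1 transcript occurred in transcripts of other genes for 0.104% of the stretches, and for Foxo3 and Foxo4 the share was 0.

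The sequence just upstream of the start is shown for Foxo1 and Foxo3, the 2 genes that were lower in both activated libraries, because forkhead factors are known to act on promoters, including those of Foxo genes. The bases come from RefSeq (GRCm38.p6), run 5′ to 3′ on the gene's strand and end before the start annotated by RefSeq and by GENCODE. They cover chr3:52268087-52268335 for Foxo1, 249 bases, and chr10:42276756-42276945 on the minus strand for Foxo3, 190 bases. Capitals mark CCAAT and GGGCGG, or their reverse complements ATTGG and CCGCCC, none of which overlap.
Foxo1: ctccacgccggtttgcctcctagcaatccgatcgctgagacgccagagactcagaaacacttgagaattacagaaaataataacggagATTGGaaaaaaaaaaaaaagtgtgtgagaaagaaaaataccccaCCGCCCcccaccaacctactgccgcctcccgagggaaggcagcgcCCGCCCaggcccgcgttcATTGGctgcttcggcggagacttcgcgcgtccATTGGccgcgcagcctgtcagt
Foxo3: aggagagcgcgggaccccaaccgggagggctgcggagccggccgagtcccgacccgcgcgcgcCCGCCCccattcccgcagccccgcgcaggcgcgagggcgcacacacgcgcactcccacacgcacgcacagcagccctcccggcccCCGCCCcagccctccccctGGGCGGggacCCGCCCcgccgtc

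The forkhead core motif TAAACA (or TGTTTA on the other strand) had 0 matches in either window, where 12.0% of 27025 RefSeq promoter windows of the Foxo1 length and 2709 of the 27025 windows of the Foxo3 length held one. The Foxo1 window held 3 CCAAT motifs, of a kind that 34.4% of windows held at least once, and 2 GGGCGG motifs (32.8% of windows). The Foxo3 window held 0 CCAAT motifs (27.2% of windows) and 4 GGGCGG motifs (22.8% of windows). The Foxo1 window had 20 CG dinucleotides against a median of 6, a number reached by 17.65% of windows of its length. The Foxo3 window had 28 against a median of 4, a number reached by 2.14%. G and C made up 55.8% of the Foxo1 window and 81.6% of the Foxo3 window. These matches describe the letters of the windows only.

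Levels were compared between the genes per length, as CPM per kilobase of exon. Foxo1 stood at 29.97 and 26.2 CPM per kb in the resting libraries against 18.8 and 14.6 in the activated libraries. Foxo3 stood at 7.80, 6.71, 5.50 and 5.13 CPM per kb and Foxo4 at 1.77, 0.993, 2.12 and 1.81, in the same order of libraries. The order Foxo1, Foxo3, Foxo4 held in 4 of 4 libraries. Foxo1 was 2.86 to 3.90 times as high as Foxo3, and Foxo3 2.59 to 6.76 times as high as Foxo4, so no neighbours in this order overlapped within a library. Foxo1 was above 76.1% to 87.6% of tested genes by this level, Foxo3 above 54.02% to 62.5% and Foxo4 above 26.02% to 34.5%.

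The summed level of the 3 genes was 36.7 ± 3.99 CPM per kb (SD, n = 2) in resting and 23.98 ± 3.37 in activated Treg. Foxo1 made up 75.8% and 77.3% of that sum in resting A and B and 71.1% and 67.8% in activated A and B. Its share was thus lower in both activated libraries, by 7.06 percentage points between the means. Foxo4 took 4.48% and 2.93% of the sum in resting and 8.05% and 8.39% in activated Treg, and Foxo3 took 19.7% and 19.8% against 20.9% and 23.8%. The ratio of Foxo1 to Foxo3 was 3.84 and 3.90 in resting and 3.41 and 2.86 in activated Treg. For the 3 shares, the sum and the log2 ratio of Foxo1 to Foxo3, the groups did not overlap and the two-sided exact permutation test gave p = 0.333 before and after adjustment over these 5 quantities, the smallest p that 2 libraries against 2 allow.

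**Figure D3:**
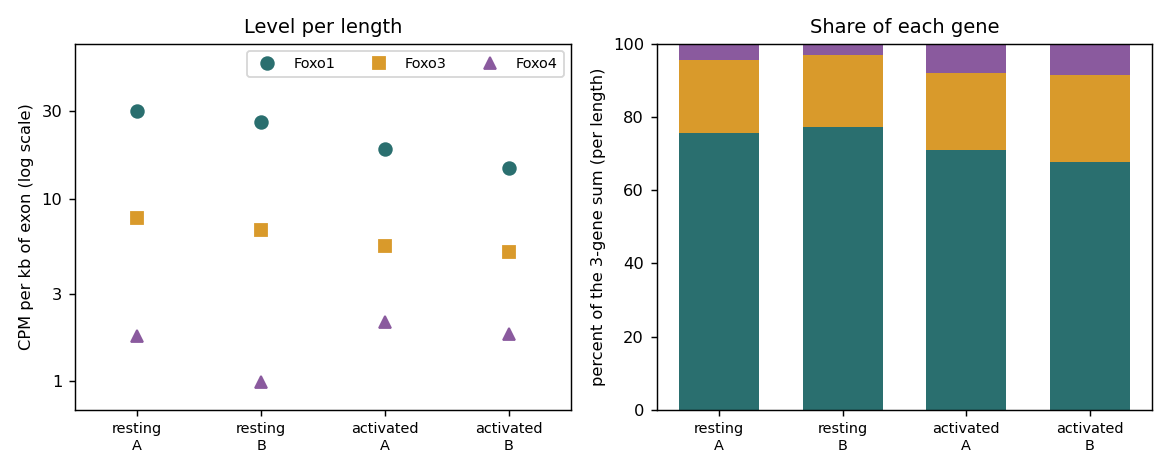
Left, CPM per kb of exon on a log axis for Foxo1 (circles), Foxo3 (squares) and Foxo4 (triangles) in each library; right, each gene as a percent of their sum in the same library, stacked from Foxo1 at the bottom to Foxo4. Foxo1 is highest in every library, at 29.97 and 26.2 in resting and 18.8 and 14.6 CPM per kb in activated Treg, and its share runs from 77.3% in resting B to 67.8% in activated B.

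Among the 44 forkhead genes in the count table, 14 passed the filter and 12 had 0 counts in all libraries. By mean CPM per kb Foxo1 ranked 2, Foxo3 ranked 7 and Foxo4 ranked 11. Foxp1, a forkhead repressor that is known to oppose Foxo1 at the Il7r gene, ranked 1 and was above Foxo1 in 4 of 4 libraries, at 51.8, 35.8, 31.9 and 19.4 CPM per kb. Foxn2, next below Foxo1, was at 15.6, 12.1, 14.6 and 9.43 CPM per kb and under Foxo1 in each library. Foxp3, the factor that defines Treg, stood above Foxo3 in each library. In resting Treg it was at 8.48 and 7.66 CPM per kb, against 7.80 and 6.71 for Foxo3. In activated Treg it was at 8.20 and 8.01, against 5.50 and 5.13 for Foxo3. Foxj2, next below Foxo3, was above it in activated B (5.45 against 5.13), so the order of these 2 was not the same in all libraries. Of the 11 other forkhead genes tested, edgeR called 0 and DESeq2 called 0 higher and 2 lower, the same numbers as passed an unadjusted p under 0.05. Over all tested genes 0.829% were called lower by DESeq2 and 2.61% were lower by that p. The 2 were Foxn3, at 210 and 176 CPM in resting and 108 and 81.7 CPM in activated Treg (DESeq2 adjusted p = 0.00532), and Foxk1, at 98.8 and 90.6 against 54.01 and 50.6 CPM (adjusted p = 0.00592). Both have larger log2 fold changes than Foxo1, -1.02 for Foxn3 and -0.85 for Foxk1, but the difference from Foxo1 was not tested. Foxp1 was at 602 ± 156 and 353 ± 122 CPM (SD, n = 2) and did not pass. The median log2 fold change of the 11 genes was -0.21, against -0.01 over all genes tested.

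The genes whose pattern over the 4 libraries was most like that of a Foxo gene were taken by the Euclidean distance of log2 CPM, each centred on the gene's own mean, among genes whose mean log2 CPM was 4 or more. With 4 libraries such likeness describes these libraries and no more. Nearest to Foxo1, among 7028 genes, were Fam78a (distance 0.0428), Hmgcs1, an enzyme of cholesterol synthesis (0.0522), Sh3bp5 (0.0702), the kinase gene Stk26 (0.0872) and Ablim1, an actin-binding protein (0.0895). Fam78a ran from 103 CPM in resting A to 48.8 CPM in activated B. Nearest to Foxo3 were Nras, a small GTPase (0.0434), Tmem131 (0.0489), Cox7a2l (0.0638), Larp4b (0.0661) and the actin regulator Evl (0.0673). Foxo4 had no neighbour as close: Prag1 (0.14), the transcription factor Tef (0.218), Tmx4 (0.26), Pou2f2 (0.287) and Cbx7 (0.289) were nearest, all with resting B as their lowest library. Foxo4 itself had a mean log2 CPM of 2.51, below the level asked of the genes it was compared with. The part of its few counts in these distances was not tested. Foxo1 and Foxo3 lay 0.361 apart, and 229 of the 7028 genes were nearer to Foxo1 than Foxo3 was. Foxo4 lay 1.39 from Foxo1 and 1.09 from Foxo3.

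**Figure D4:**
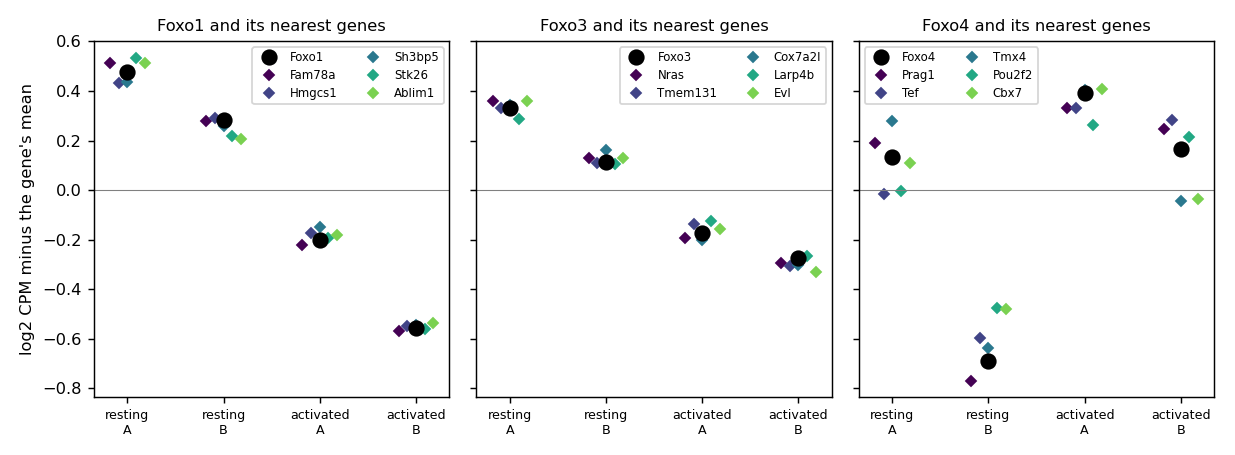
Log2 CPM minus the gene's mean over the 4 libraries (vertical axis, shared) for each Foxo gene (black circles) and its 5 nearest genes (diamonds). Foxo1 and Foxo3 and their neighbours are highest in resting A and lowest in activated B, while Foxo4 and its neighbours share a low value in resting B.

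The rest of the pathway was read from lists by role. Kinases and partners that restrain Foxo proteins had 27 tested members. Of these, edgeR and DESeq2 called 0, with 0 at an unadjusted p under 0.05 in either direction. Over all tested genes edgeR called 0, DESeq2 called 0.829% lower and 2.28% higher, and 2.61% were lower and 6.30% higher by the unadjusted p. The median log2 fold change of the 27 was -0.12. Of the 27, 8 had both activated libraries below both resting ones (17.4% of all tested genes) and 1 both above (19.8%). Sgk3, a kinase related to Akt, was at 92.6 and 58.3 CPM in resting and 40.9 and 12.04 CPM in activated Treg, and did not pass (edgeR adjusted p = 0.58). Sgk1 was at 49.5 ± 4.53 and 35.9 ± 3.02 CPM (SD, n = 2). The 14-3-3 genes Ywhaz, at 1172 ± 213 and 938 ± 219 CPM, and Ywhae, at 640 ± 121 and 589 ± 59.4 CPM, had the highest levels of the list, with groups that overlapped.

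Phosphatases and kinases that keep Foxo proteins active had 13 tested members with a median of -0.18. edgeR and DESeq2 called 0 of them. Over all tested genes edgeR called 0 and DESeq2 called 0.829% lower and 2.28% higher. At an unadjusted p under 0.05 edgeR counted 1 of the 13, which was lower, as were 2.61% of all tested genes. That gene was Pik3ip1, an inhibitor of PI3K, at 139 and 100.3 CPM in resting and 76.5 and 47.3 CPM in activated Treg (edgeR adjusted p = 0.455). Stk4, the kinase Mst1, which phosphorylates Foxo proteins at sites that favour their entry into the nucleus, was at 592 ± 41.9 and 438 ± 54.05 CPM (SD, n = 2). Inpp4b, a phosphoinositide phosphatase, varied more within groups than between them, at 788 and 458 CPM in resting and 706 and 302 CPM in activated Treg. Of 15 enzymes that modify or degrade Foxo proteins 14 were matched by symbol to the table and tested, with a median of -0.07. No identifier matched Prmt1, which does not show that the gene is absent, since only 37607 of 38924 identifiers matched a symbol. edgeR and DESeq2 called 0 of the 14, against the same shares over all tested genes as above. By the unadjusted p under 0.05 the number was also 0, where 2.61% of all tested genes were lower and 6.30% higher. Crebbp, an acetyltransferase that acts on Foxo proteins, was at 147 ± 21.5 and 107.5 ± 9.10 CPM (SD, n = 2), the deacetylase gene Sirt2 at 116 ± 21.4 and 137 ± 35.3 CPM, and Sirt3 at 5.34 ± 0.476 and 8.66 ± 2.55 CPM.

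Among 16 genes listed as Foxo targets of homing and quiescence, DESeq2 called 7 lower and 0 higher and edgeR over all genes called 0. An unadjusted p under 0.05 was met by 8 that were lower and 2 that were higher. The list does not record whether Foxo factors raise or lower each gene in Treg. Over all tested genes, DESeq2 called 0.829% lower and 2.28% higher, and 2.61% and 6.30% were lower and higher by the unadjusted p. For 10 of the 16 both activated libraries were under both resting ones (17.4% of all tested genes), and for 3 both were above (19.8%). Over the list the median was -0.54 on the log2 scale, smaller in size than that of Foxo1 itself. S1pr1, the receptor for exit from lymphoid organs, was at 876 and 882 CPM in resting and 343 and 332 CPM in activated Treg, with close replicates in both groups (DESeq2 adjusted p = 1.83e-10). Klf2, the factor that drives S1pr1, was at 50.5 and 63.04 against 21.1 and 22.2 CPM (adjusted p = 3.24e-05). Tcf7, a factor of naive and memory T cells, was at 917 and 851 against 489 and 539 CPM (adjusted p = 0.0072). Il7r, a gene of the same list that was named above with Foxp1, had overlapping groups. It was at 297 and 173 CPM in resting and 340 and 208 CPM in activated Treg (log2 fold change 0.22). The 2 genes higher at an unadjusted p under 0.05, named after their values were seen, were Rbl2, at 129 and 197 CPM as group means, and Bcl6, at 28.4 and 42.2 CPM. S1pr1 and Klf2 therefore had larger log2 fold changes (-1.38 and -1.39) than Foxo1 (-0.75), a difference that was not tested.

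Foxo targets of metabolism, stress and autophagy had 18 tested members with a median of -0.24. DESeq2 called 1 higher and 0 lower and edgeR called 0, while an unadjusted p under 0.05 was met by 1 gene in each direction. The shares over all tested genes were 2.28% called higher and 0.829% called lower by DESeq2, and 6.30% higher and 2.61% lower by the unadjusted p. The one called by DESeq2 was Gabarapl1, a gene of autophagosome formation, at 7.29 and 9.53 CPM in resting and 18.3 and 22.4 CPM in activated Treg (adjusted p = 0.0141). The one lower at an unadjusted p under 0.05 was Sesn1, a stress-induced brake on mTORC1, at 319 and 286 against 227 and 175 CPM (edgeR adjusted p = 0.489). Txnip was at 555 ± 91.01 and 418.5 ± 84.6 CPM (SD, n = 2). Map1lc3b, an autophagy gene of the same list, was at 350.3 ± 26.65 and 351 ± 59.9 CPM with overlapping groups.

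The 4 genes that Foxo1 is known to restrain in T cells all had log2 fold changes above 0, as did 6996 of the 14235 tested genes. The median of the 4 was 1.63. DESeq2 called 2 of them higher (2.28% of all tested genes), edgeR called 0, and 3 were higher at an unadjusted p under 0.05 (6.30%). Ifng was at 1.70 and 2.09 CPM in resting and 7.59 and 6.37 CPM in activated Treg (DESeq2 adjusted p = 0.00767). Tbx21, the factor T-bet, was at 2.33 and 4.37 against 9.26 and 12.9 CPM (adjusted p = 0.032). Gzmb, at 4.08 and 17.6 against 16.9 and 47.4 CPM, had overlapping groups. Prdm1, the factor Blimp-1, was at 15.02 and 21.1 against 30.9 and 53.8 CPM and did not pass by DESeq2 (adjusted p = 0.0618). In the same libraries the summed level of 4 NK cell markers was 4.28 to 6.33 CPM in resting and 12.8 to 16.7 CPM in activated Treg. Of these 4 markers, 2 were higher (19.8% of all tested genes) and 1 lower (17.4%) in both activated libraries. Klra8 and Ncr1 were at 0 in both resting libraries. The summed level of the CD8 markers Cd8a and Cd8b1 was 27.3 to 30.4 and 35.8 to 81.8 CPM. Their part in the result was not tested.

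**Figure D5:**
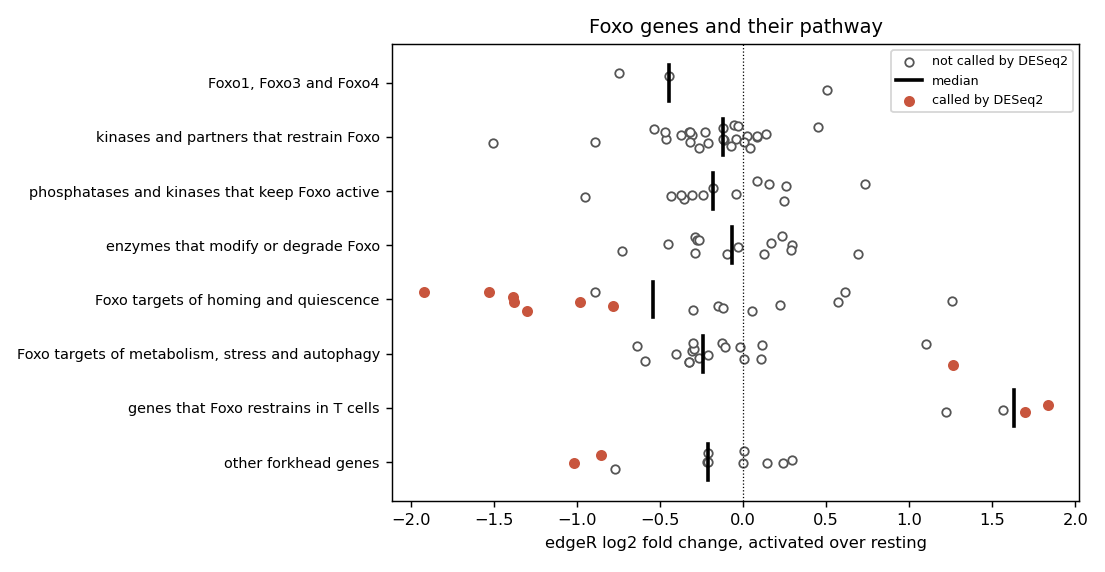
EdgeR log2 fold change, activated over resting, of the Foxo genes and of each tested gene of the pathway lists (rows); filled points were called by DESeq2 and black bars are medians. Filled points lie to the left among the targets of homing and quiescence (7 of 16) and the other forkhead genes (2 of 11), and to the right among the 4 restrained genes (2) and the metabolism list (1 of 18).

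The libraries held 20282062 to 31851982 counts, with 18928 to 23398 genes detected, and the labels were checked against marker genes. Cd4, Cd3e and Foxp3 were present in all 4 libraries, with Foxp3 at 35.1 to 38.8 CPM. Of the 6 T cell and Treg markers, 3 were higher (19.8% of all tested genes) and 1 lower (17.4%) in both activated libraries. The higher ones were Cd4, Ctla4 and Ikzf2. The lower one was Il2ra, at 1030 and 1088 CPM in resting and 921 and 719 CPM in activated Treg. Cd44 was at 145 and 213 CPM in resting and 329 and 335 CPM in activated Treg. Markers of other cells moved with the groups too. The 6 plasmacytoid dendritic cell markers summed to 90.9 and 97.3 CPM in resting and 759 and 222 CPM in activated Treg. All 6 were higher in both activated libraries, as were 19.8% of all tested genes. Klk1 among the 6 was at 0 in resting B. The 6 conventional dendritic cell markers summed to 11.4 and 7.93 against 155 and 42.7 CPM, again with all 6 higher and with Clec9a at 0 in resting B. Foxo1 was higher in activated A, which had the more of these transcripts, than in activated B, and its log2 fold change was -0.91 when activated A was left out and -0.58 when activated B was. The 6 macrophage markers summed to 398 and 475.5 CPM in resting A and activated A and to 13.2 and 63.4 CPM in resting B and activated B. Of these 6, 1 was higher (19.8% of all tested genes) and 0 were lower (17.4%) in both activated libraries. The higher one was Lyz2, at 11.8 and 2.16 CPM in resting and 104.9 and 25.6 CPM in activated Treg. The 6 B cell markers, which matter because B cells also express Foxo1, summed to 44.2 and 65.6 CPM in resting and 86.6 and 116 CPM in activated Treg. Of these 6, 3 were lower (17.4% of all tested genes) and 2 higher (19.8%) in both activated libraries. The part of these transcripts in the Foxo values was not tested.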

How the data were processed

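Total RNA from sorted Treg was amplified with SMART-seq v4, per the labels' protocols, and no molecular identifiers are named. Tools named in the submitters' processing notes, without roles, are DESeq2, featureCounts and STAR 2.4.0c, with the build mm10. Annotation, strand setting and read filters were not given in the sources used here. Both tables are the authors' own, who deposited raw counts per Ensembl gene and regularized log2 values. Replicate numbers in the headings of the count table repeat, so its columns were assigned to groups only.

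Symbols, positions and lengths came from GENCODE M21 (37607 of 38924 identifiers matched); promoter windows came from RefSeq. Genes were kept by filterByExpr (minimum count 10, total 15), scaled by TMM and tested over all genes with edgeR 4.0.16 (R 4.3.3, quasi-likelihood F-test, prior count 2, Benjamini-Hochberg, threshold 0.05). The SE was derived from the F statistic and is approximate. DESeq2 1.42.0, limma-voom and limma 3.58.1 on the log2 values, other scalings, no filter and leaving out each library were alternatives. The fit was tested on simulated data with larger changes than those of the Foxo genes and less spread between replicates than in these libraries. That test therefore does not show how the fit performs on changes of the Foxo size. In the smallest library 1 CPM is 20.3 counts. The members and lists were chosen with earlier results of these data known. Named were the Foxo genes, per list the 2 genes with the smallest p and the 2 with the highest level, and the 5 nearest genes in pattern; a gene this rule named is not reported here.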

Additional observations from a re-analysis of the deposited data

How the results depend on the processing

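Of 12 alternatives, the Foxo1 log2 fold change kept its direction in 12 and its side of the threshold in 11, between -0.913 and -0.583. The exception was edgeR with no filter on low counts (-0.779, adjusted p = 0.0396), a fit of 26327 genes; the cause was not tested. Foxo3 (-0.552 to -0.332) and Foxo4 (0.15 to 0.974) kept their direction and stayed short of the threshold in all 12. Counts of genes called moved more: from 0 higher and 0 lower to 324 and 118 by DESeq2, 675 and 177 with no filter, and between 0 and 303 higher and 0 and 28 lower by edgeR when a library was left out. Each of these 4 fits leaves 1 group with a lone library, which is assumed to vary like the other group, so the 4 say little about stability. The highest counts came without resting A, and without activated A both were 0. The difference in the Foxo1 share ranged from -8.68 to -5.03 points over 6 alternatives, by length definition or library left out.

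Replicate numbers exist only for the regularized log2 values, and the design text gives independent animals, so a number was not taken to pair libraries. Differences between replicates 1 and 2 correlated across 14235 genes between the groups (r = 0.652; genes are not independent replicates). With the replicate number as a block, limma called 629 genes higher and 190 lower, against 0 of both without it, and gave adjusted p = 0.0624 for Foxo1, 0.199 for Foxo3 and 0.274 for Foxo4. With 2 libraries per group, a change the size of that of Foxo3 did not pass after adjustment over all genes.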

Other observations

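Of the 30 forkhead genes that did not pass the filter, Foxr1 was singled out after its values were seen. It had 0 counts in both resting libraries, 70 in activated A and 5 in activated B. Its level in activated A was 0.9996 CPM per kb, below that of Foxo4 in the same library (2.12). No test was made on it.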
